A study of Mus musculus with 31 samples.

Results

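Gene expression in the colonic lining was compared between mice infused rectally with butyrate and mice infused with saline, both fed a high-fat diet (HFD). The comparison holds 8 of the 31 arrays of the study, 4 of butyrate on HFD and 4 of saline on HFD, chosen by sample title. All 21218 of the 35556 probe sets that carry a single gene symbol entered it. They stand for 18820 genes, of which 12795 passed a filter on dim signal and were tested.

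The mice were male C57Bl/6J animals, 8 weeks old when first housed, and the labels give an age of 13 weeks. After chow they ate for 2 weeks either HFD with 45% of its energy as fat or a low-fat diet (LFD) with 10%, both made with palm oil. On each of 6 consecutive days 80 µL of solution at pH 6.5 was infused under isoflurane, 2 h before the dark phase, from a tip placed 3 cm deep. The butyrate group on HFD received 100 mM sodium butyrate in saline. The propionate and acetate groups on HFD received 100 mM of their sodium salts, and the saline group on HFD received the solution without acid (0 mM). The butyrate and saline groups on LFD received the same solutions as on HFD. The lining was scraped from the colon 4 h after the last infusion. Each of these groups had 4 arrays. According to the labels a group had 6 mice. Whether 1 array stands for 1 mouse is not given, so p-values below measure the spread between these samples only.

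Butyrate is a short-chain fatty acid made by gut bacteria from fibre and the main fuel of colonocytes, the absorptive cells of the colon. It enters these cells through monocarboxylate transporters, is oxidised in their mitochondria, activates the fatty acid receptors on their surface and inhibits histone deacetylases, enzymes that remove acetyl groups from histones. Inhibition of deacetylases is known to raise the transcription of growth-arrest genes such as Cdkn1a in cultured colon cells.

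The arrays carried a strong epithelial signal. Over the 8 arrays the defining markers of colonocytes had log2 levels of 10.85 to 12.82 and those of goblet cells 12.22 to 13.19. Transcripts of other cells were present at lower levels. The defining markers of smooth muscle (7 of 7), macrophages (3 of 3), T cells (3 of 3), B and plasma cells (2 of 2) and adipocytes (3 of 3) passed the filter, as did 4 of 5 for fibroblasts, 2 of 3 for endothelium and 1 of 3 for neurons and glia. Their log2 levels over the 8 arrays reached 8.63 in smooth muscle, 7.95 in fibroblasts and 7.62 in B and plasma cells. Lum (fibroblasts), Kdr (endothelium), Elavl4 (neurons) and S100b (glia) did not pass. Array medians lay between 5.15 and 5.18, and arrays of the same group correlated with r of 0.991 to 0.993. Saline HFD arrays 1 and 2 were high in smooth muscle transcripts, saline HFD array 2 was high in small-intestinal transcripts such as Apoa1 and Apoa4, and butyrate HFD array 1 was high in immune and matrix transcripts. The 4 arrays of the study with much small-intestinal RNA were saline HFD array 2, saline LFD arrays 2 and 3 and propionate LFD array 2. Values without these arrays are given beside the results that moved most when they were left out. In such bulk samples fewer cells of a type and less RNA per cell cannot be told apart.

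No gene was told apart between butyrate and saline on HFD. By limma with Benjamini-Hochberg adjustment at 0.05, 0 of 12795 genes were called (0%), and the smallest adjusted p was 0.818, for Csf2rb2. At an unadjusted p under 0.05 there were 513 genes (4.01%), 370 higher with butyrate (2.89%) and 143 lower (1.12%), where 639.75 would fall below that limit if p were spread evenly. The arrays of the groups did not overlap for 373 genes (2.92%), 255 of them higher with butyrate (1.99%) and 118 lower (0.922%). Differences are given as butyrate minus saline on the log2 scale. Their median over all genes was 0.017, and 57.2% of genes were above 0. The 95% interval of a gene reached a median of 0.213 to either side, and for 98.9% of genes it left out a 2-fold difference in either direction. The number of arrays limits this precision.

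**Figure D1:**
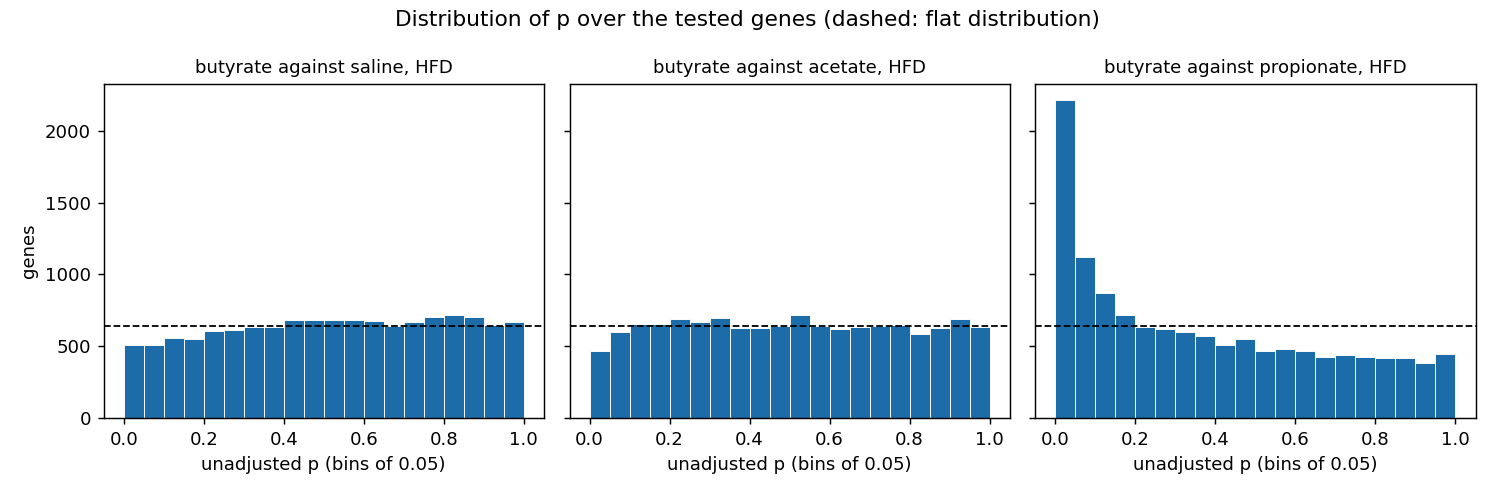
Number of the 12795 tested genes (vertical axis) by unadjusted limma p in bins of 0.05 (horizontal axis) for butyrate against saline, acetate and propionate on HFD. The dashed line marks an even spread of 639.75 genes per bin. The first bin holds 513 genes against saline and 466 against acetate, both under the line, and 2217 against propionate.

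The 15 genes with the smallest p among those higher with butyrate are described first, as values and not as calls. Each of them, and of the 15 lower genes, had a limma Benjamini-Hochberg adjusted p of 0.818 or more. The 15 differed by 0.23 to 0.61, and for 13 of them the 4 butyrate arrays lay above the 4 saline arrays (1.99% of all genes did). This is set by the choice of the smallest p. In 6 of them the mean level was under 5 in both groups, close to the filter of 4.32, where array signals are dim.

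Several of the 15 are genes of blood and immune cells. Csf2rb2, which in mice encodes the beta subunit of the interleukin-3 receptor, had log2 levels of 5.30, 4.60, 4.86 and 4.98 with butyrate, against 4.45, 4.21, 4.46 and 4.20 with saline. The lowest butyrate array was above the highest saline array, and the difference was 0.61 (95% interval 0.34 to 0.88). Without butyrate HFD array 1, the highest, it was 0.49. H2-M3, a non-classical MHC class I molecule that presents formylated bacterial peptides, had log2 levels of 6.13, 6.09, 6.08 and 6.30 with butyrate, against 5.91, 5.82, 5.77 and 5.71 with saline. All butyrate arrays were above all saline arrays, with a difference of 0.35 (0.19 to 0.51), and leaving out any single array kept it between 0.30 and 0.38. Gimap8, a GTPase of lymphocytes, differed by 0.46, Gna15, a G protein alpha subunit of blood cells, by 0.44, and Hcls1, an actin regulator of blood cells, by 0.42.

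Myd88 encodes the adaptor through which Toll-like and interleukin-1 receptors signal. Its log2 levels were 9.12, 9.11, 8.92 and 9.15 with butyrate, against 8.88, 8.74, 8.91 and 8.87 with saline. Butyrate array 3 lay just above the highest saline array, and the other butyrate arrays stood clear of them. The difference was 0.23 (0.11 to 0.34). The 250 bases before the annotated start of the gene are shown because Myd88 passed the threshold against propionate, described further on. They lie at chr9:119340019-119340268 on the minus strand of GRCm38.p6, from RefSeq, and are printed 5′ to 3′ with the GC box (GGGCGG, or CCGCCC for the other strand) in capitals.
Myd88: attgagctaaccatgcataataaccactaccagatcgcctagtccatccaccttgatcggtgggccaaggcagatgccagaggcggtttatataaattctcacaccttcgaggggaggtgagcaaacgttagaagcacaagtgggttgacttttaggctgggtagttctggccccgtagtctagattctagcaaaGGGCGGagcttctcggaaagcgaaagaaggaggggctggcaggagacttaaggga
The box occurs 1 time in this window, and 32.7% of the 32851 promoter windows of the same length hold it on either strand.

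A further group is known from stroma and vessels. Pdpn, podoplanin, a glycoprotein of lymphatic endothelium and stromal cells, had log2 levels of 5.35, 5.16, 5.32 and 5.05 with butyrate, against 4.69, 4.93, 4.65 and 4.84 with saline. The groups did not overlap, and the difference was 0.45 (0.22 to 0.67). Fscn1, the actin-bundling protein fascin, had log2 levels of 5.22, 4.50, 4.55 and 4.49 with butyrate, against 4.43, 4.17, 3.68 and 4.04 with saline. Its difference was 0.61, and 0.44 without butyrate HFD array 1, which stood far above the other butyrate arrays. Antxr1, an anthrax toxin receptor that binds matrix proteins, differed by 0.54, and Mxra8, a membrane protein of stromal cells, by 0.50. A dimmer probe set of Mxra8, with a mean log2 level of 4.03, differed by -0.11. Cd93, a receptor of endothelial and myeloid cells, differed by 0.37. The markers of fibroblasts, macrophages and B cells given below were also higher on butyrate HFD array 1. Their part in these differences was not tested.

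The remaining higher genes have other roles. Tdg, the thymine DNA glycosylase that removes mismatched and oxidised bases in DNA repair and demethylation, had log2 levels of 7.96, 7.98, 7.75 and 7.93 with butyrate, against 7.42, 7.36, 7.56 and 7.66 with saline. The butyrate arrays were all above the saline arrays, with a difference of 0.40 (0.18 to 0.62). Without saline HFD arrays 1 and 2 the difference was 0.29. Nanp, a phosphatase of sialic acid synthesis, had log2 levels of 6.68, 6.70, 6.42 and 6.58 with butyrate, against 6.25, 6.15, 6.19 and 6.33 with saline. These groups did not overlap either, and the difference was 0.36. Traf3ip1, a protein of ciliary transport, differed by 0.36, and Snn by 0.38.

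Among the 15 genes with the smallest p that were lower with butyrate, the differences ran from -0.21 to -0.92. For 9 of them the groups did not overlap, as for 0.922% of all genes in this direction. This too is set by the choice of the smallest p. Nit1, an amidase that clears deaminated glutathione, had log2 levels of 8.81, 8.76, 8.70 and 8.79 with butyrate, against 9.12, 9.01, 8.97 and 8.97 with saline. All butyrate arrays were below all saline arrays, with a difference of -0.25 (-0.38 to -0.12). Map1lc3a, an LC3 protein of autophagosome membranes, had log2 levels of 7.55, 7.50, 7.45 and 7.50 with butyrate, against 7.81, 7.95, 7.85 and 7.69 with saline. Here too the groups did not overlap, and the difference was -0.32 (-0.49 to -0.15). P2rx4, an ATP-gated cation channel, had log2 levels of 10.26, 10.16, 10.28 and 10.31 with butyrate, against 10.40, 10.54, 10.46 and 10.44 with saline. The groups stood close without overlap, and the difference was -0.21 (-0.33 to -0.09).

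Regulators of chromatin, growth and cell death were also among the lower genes. Kat2b, the histone acetyltransferase PCAF, differed by -0.23, with log2 levels of 7.20 to 7.34 over the butyrate arrays and 7.41 to 7.60 over the saline arrays. Tsc1, which restrains the growth kinase mTOR, differed by -0.26, and its highest butyrate array (7.98) was above its lowest saline array (7.95). Bok, a member of the Bcl-2 family of cell death regulators, differed by -0.38, and Csf3, the granulocyte growth factor, by -0.27. Noct, nocturnin, whose transcript cycles with the circadian clock, differed by -0.39, with log2 levels of 7.60 to 7.96 on butyrate arrays and 8.17 to 8.27 on saline arrays. Further lower genes were Iqcd (-0.33), Mrpl54, a mitochondrial ribosomal protein (-0.26), Dusp18, a phosphatase (-0.23), and Kazald1 (-0.42).

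The smooth muscle genes Myl9 and Tagln had the largest of these lower differences, and they rested on saline HFD arrays 1 and 2. Myl9, a myosin light chain, had log2 levels of 5.94, 5.73, 5.58 and 5.26 with butyrate, against 7.09, 7.38, 5.49 and 6.21 with saline. The third saline array lay within the butyrate arrays, and the difference of -0.92 was -0.22 without saline HFD arrays 1 and 2. Tagln, transgelin, an actin-binding protein of smooth muscle, differed by -0.56, and by -0.09 without these arrays.

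**Figure D2:**
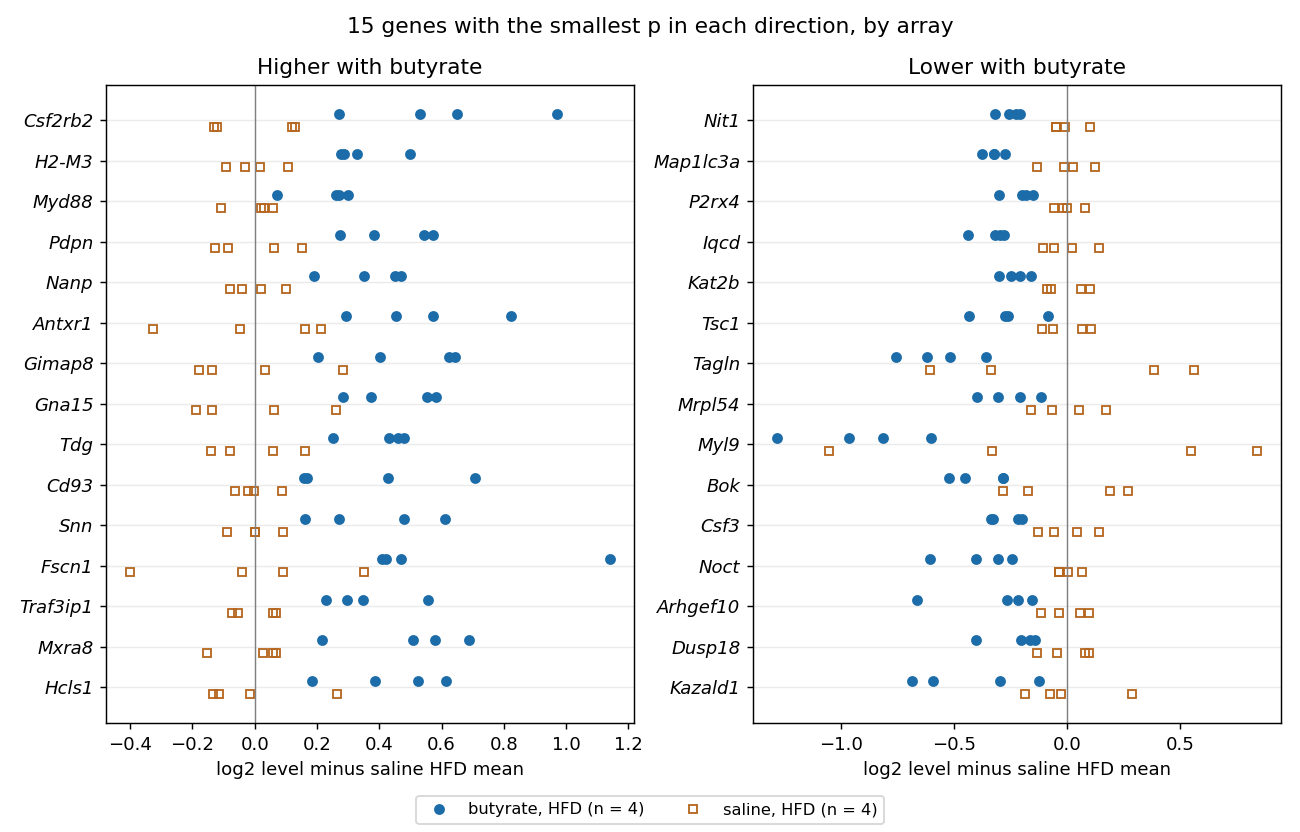
Log2 level on each array minus the mean of the saline HFD arrays (horizontal axis) for the 15 genes with the smallest p in each direction (vertical axis). Filled circles are the 4 butyrate arrays and open squares the 4 saline arrays. Csf2rb2 and Fscn1 have the largest differences among the higher genes (0.61 each), and in Myl9 and Tagln a pair of saline arrays stands far to the right.

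Transport and sensing of the acid come first among the pathways. The list of uptake and receptor genes had 9 tested members, 0 of them called and 0 at an unadjusted p under 0.05. Their median difference was -0.06, and 2 members were above 0 (57.2% of all genes were). Without saline HFD arrays 1 and 2 the median was 0.008, with 5 members above 0 (55.2% of all genes were). Slc5a8, a sodium-coupled monocarboxylate transporter of the apical membrane, had log2 levels of 11.14, 11.08, 11.12 and 11.19 with butyrate, against 11.29, 11.04, 11.10 and 11.15 with saline. The arrays were interleaved, and the interval of the difference ran from -0.18 to 0.15. Slc16a1, the transporter MCT1, differed by -0.05 (-0.30 to 0.20), with log2 levels of 10.16 to 10.40 with butyrate and 10.12 to 10.66 with saline. Its chaperone Bsg, basigin, differed by 0.04 (-0.09 to 0.16). Slc26a3, the chloride and bicarbonate exchanger, differed by -0.06 (-0.38 to 0.26), and Abcg2, an efflux pump, by -0.14 (-0.39 to 0.11), or by -0.02 without butyrate HFD array 1 and -0.25 without saline HFD arrays 1 and 2.

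The receptors gave equally small differences. Ffar2, a G protein-coupled receptor for short-chain fatty acids, had log2 levels of 6.50, 6.76, 7.01 and 6.61 with butyrate, against 6.35, 7.12, 6.49 and 6.87 with saline. The groups overlapped throughout, and the difference was 0.01 (-0.30 to 0.32), or 0.15 without the 4 arrays with much small-intestinal RNA. Ffar3, a second receptor of this kind, differed by -0.06 (-0.25 to 0.14), at log2 levels of 4.57 to 4.83 over the 8 arrays. The lactate exporter Slc16a3 had the most negative difference of the list, -0.15, with an interval of -0.54 to 0.23.

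Enzymes that activate and break down short-chain acids had 14 tested members, 0 of them called and 0 at an unadjusted p under 0.05. Their median was -0.007, and 7 were above 0 (57.2% of all genes were). Without butyrate HFD array 1 the median was 0.04, with 11 above 0 (57.5% of all genes were). Acads, which catalyses the first oxidation step of butyryl-CoA, had log2 levels of 9.94, 10.06, 10.21 and 10.30 with butyrate, against 9.94, 10.19, 10.22 and 10.27 with saline. The groups overlapped over nearly their whole range, with a difference of -0.03 (-0.25 to 0.20). Hadh, a dehydrogenase of the same spiral, differed by 0.07 (-0.07 to 0.21), and Etfa, which takes up the electrons, by -0.10 (-0.32 to 0.12). Mcee, an epimerase of the propionate pathway, had the most positive difference, 0.09. All 14 differences lay between -0.10 and 0.09.

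Ketone bodies can be made from butyrate carbon. The 4 measured genes of ketone body synthesis and use, Acat1, Bdh1, Oxct1 and the transporter Slc16a6, differed by 0.02, 0.04, 0.05 and 0.07, and none was called or had an unadjusted p under 0.05. Oxct1, which activates acetoacetate for oxidation, had log2 levels of 9.18, 9.21, 9.06 and 9.19 with butyrate, against 9.25, 9.11, 9.08 and 8.99 with saline. Its interval of -0.15 to 0.25 holds 0, as do those of the other 3.

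Of the 10 histone deacetylases tested, 0 were called, and the median was -0.04. At an unadjusted p under 0.05, 1 was higher (2.89% of all genes were) and 1 lower (1.12%). Hdac1, a class I enzyme of nuclear repressor complexes, had log2 levels of 9.79, 10.05, 9.71 and 9.98 with butyrate, against 9.55, 9.69, 9.55 and 9.84 with saline. The ranges overlapped through the fourth saline array, and the difference was 0.22 (0.02 to 0.43). Hdac6, a cytoplasmic tubulin deacetylase, differed by -0.16 (-0.33 to -0.005). Hdac2, the close relative of Hdac1, differed by 0.15 (-0.10 to 0.40), Hdac7 by 0.15 (-0.09 to 0.39), and Hdac3 by -0.05 (-0.16 to 0.07).

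Genes known to respond to deacetylase inhibition were measured as a list of 16, of which 0 were called and 0 had an unadjusted p under 0.05. The median was -0.03, and 5 of the 16 were above 0 (57.2% of all genes were). The list was not split by the direction of the known response, so these values do not tell whether that response was present. Cdkn1a, the cyclin-dependent kinase inhibitor p21, had log2 levels of 11.13, 11.02, 10.97 and 11.00 with butyrate, against 11.05, 10.86, 11.18 and 11.16 with saline. The butyrate arrays lay inside the range of the saline arrays, and the difference was -0.03 (-0.29 to 0.23), or -0.14 without saline HFD arrays 1 and 2. In cultured cells butyrate acts on Cdkn1a through GC boxes near its start, which is why the windows of 250 bases before its annotated starts are shown. They lie at chr17:29090729-29090978 and chr17:29093519-29093768 on the plus strand of GRCm38.p6, from RefSeq, with GC boxes (GGGCGG or CCGCCC) in capitals.
Cdkn1a first start: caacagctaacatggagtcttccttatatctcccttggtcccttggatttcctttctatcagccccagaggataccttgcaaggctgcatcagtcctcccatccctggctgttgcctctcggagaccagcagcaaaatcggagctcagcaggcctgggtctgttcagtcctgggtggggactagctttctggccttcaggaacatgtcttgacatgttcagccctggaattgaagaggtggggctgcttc
Cdkn1a second start: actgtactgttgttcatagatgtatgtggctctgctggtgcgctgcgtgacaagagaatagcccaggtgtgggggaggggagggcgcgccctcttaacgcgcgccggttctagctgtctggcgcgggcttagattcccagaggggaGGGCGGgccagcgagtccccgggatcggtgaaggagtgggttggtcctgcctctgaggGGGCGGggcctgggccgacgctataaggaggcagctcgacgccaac
The second window holds the box 2 times on the printed strand and the first 0 times on either strand. The array value is 1 level for the whole gene and does not tell the starts apart.

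Other genes of this list also gave intervals that hold 0. Ccnd1, cyclin D1, differed by 0.23 (-0.02 to 0.48), and Myc by 0.19 (-0.11 to 0.49). H1f2, a linker histone, differed by -0.14, or -0.03 without saline HFD arrays 1 and 2. Alpi, the intestinal alkaline phosphatase, differed by -0.19 (-0.74 to 0.37), which became -0.04 without butyrate HFD array 1 and -0.37 without saline HFD arrays 1 and 2. Clu, clusterin, had log2 levels of 9.18, 7.55, 8.32 and 7.46 with butyrate, against 7.86, 7.53, 8.12 and 7.80 with saline. Its difference of 0.30 had the widest interval of the list, -0.73 to 1.33, and was -0.05 without butyrate HFD array 1.

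**Figure D3:**
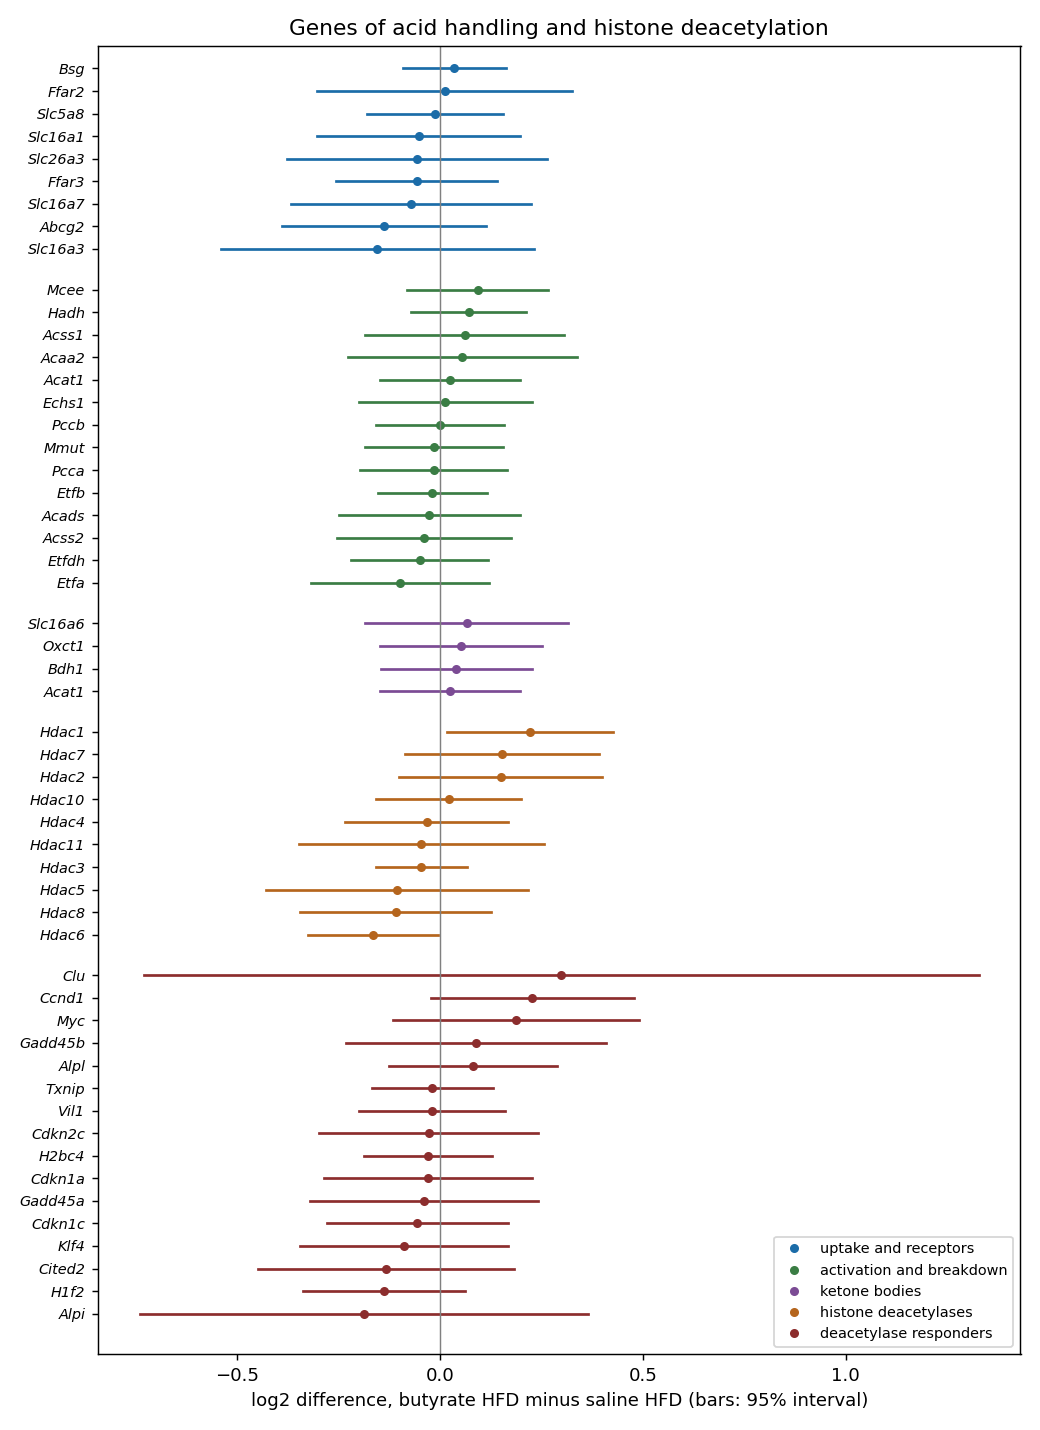
Log2 difference, butyrate HFD minus saline HFD (horizontal axis), of each gene of acid uptake, breakdown, ketone bodies, histone deacetylases and deacetylase responders (vertical axis). Points are differences of the limma fit (n = 4 arrays each) and bars 95% intervals. The intervals of Hdac1 (0.02 to 0.43) and Hdac6 (-0.33 to -0.005) leave out 0, without passing the adjusted threshold.

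PPAR receptors bind fatty acids and switch on genes of fat oxidation. Of 19 PPAR targets 0 were called and 0 had an unadjusted p under 0.05. Their median was 0.04, and 12 were above 0 (57.2% of all genes were). Angptl4, an inhibitor of lipoprotein lipase and a PPAR target, had log2 levels of 5.28, 6.05, 5.99 and 6.24 with butyrate, against 5.56, 5.48, 6.01 and 5.47 with saline. Butyrate array 1 was the lowest of the 8, the other butyrate arrays and saline array 3 were the highest, and the difference was 0.26 (-0.28 to 0.81). Pdk4, which shuts off pyruvate oxidation, showed the same low butyrate array 1, with log2 levels of 6.69, 8.03, 8.07 and 7.91 with butyrate, against 7.54, 7.47, 7.90 and 6.91 with saline. Its difference was 0.22 (-0.58 to 1.02). Without butyrate HFD array 1 the differences were 0.46 for Angptl4 and 0.55 for Pdk4. The median of the PPAR targets was then 0.12 with 16 of 19 above 0, where 57.5% of all genes were. Mitochondrial beta-oxidation had 19 tested genes, with a median of 0.04 and 13 above 0 (57.2% of all genes were). Of these, 0 were called and 0 had an unadjusted p under 0.05. Cpt1a, the entry step of long-chain fatty acids, differed by 0.07, Cpt2 by 0.10 and the carnitine transporter Slc22a5 by 0.21. The median of the beta-oxidation list was 0.10 without butyrate HFD array 1 and -0.03 without the 4 arrays with much small-intestinal RNA.

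Genes of cholesterol synthesis and uptake were mostly below 0. Of 20 tested, 19 were below 0 against 42.8% of all genes, and the median was -0.14. Among them 0 were called and 2 were lower at an unadjusted p under 0.05 (1.12% of all genes were). Stard4, a sterol carrier, had log2 levels of 8.42, 8.69, 8.45 and 8.46 with butyrate, against 8.62, 8.86, 8.64 and 8.92 with saline, a difference of -0.26. Insig1, the sterol-sensing retention protein, had log2 levels of 9.60, 9.29, 9.19 and 8.92 with butyrate, against 9.48, 9.95, 9.33 and 9.80 with saline. Saline arrays 2 and 4 were the high ones for both genes, and the groups overlapped. The mean log2 level of the list was 8.61, 8.64, 8.19 and 8.31 on the butyrate arrays and 8.28, 8.77, 8.25 and 9.04 on the saline arrays. The median of the list differences ran from -0.29 to 0.04 over the 19 alternative settings.

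Lipid absorption and lipoprotein assembly, a program of the small intestine, had a median difference of -0.18 over 20 genes, 0 called, which depended on saline HFD array 2. On average the list had log2 levels of 6.59, 6.79, 6.53 and 6.78 on the butyrate arrays and 6.56, 7.97, 6.59 and 6.72 on the saline arrays. Apoa4, an apolipoprotein of enterocytes, had log2 levels of 5.08, 5.34, 5.01 and 4.98 with butyrate, against 5.29, 9.60, 5.52 and 5.10 with saline. Its difference was -1.27, and -0.20 without the 4 arrays with much small-intestinal RNA. Apoa1, another apolipoprotein, reached a log2 level of 10.80 on the same saline array, and its difference of -1.19 was 0.04 without these 4 arrays. Without them the median of the list was 0.03. Apoc2, the activator of lipoprotein lipase, had log2 levels of 6.37, 6.18, 6.21 and 6.61 with butyrate, against 6.67, 7.10, 6.83 and 6.75 with saline, and here the groups did not overlap (difference -0.49, interval -1.01 to 0.02).

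The differentiated epithelium gave small differences. The 18 colonocyte genes had a median of -0.02 and the 18 goblet and mucus genes a median of -0.005, with 0 called in either. The mean log2 level of the colonocyte list was 11.36, 11.32, 11.37 and 11.54 on the butyrate arrays and 11.43, 11.48, 11.38 and 11.42 on the saline arrays. Among single genes, Zg16, a mucus lectin that binds bacteria, had log2 levels of 12.48, 12.36, 12.37 and 12.43 with butyrate, against 12.50, 12.54, 12.49 and 12.55 with saline. Its arrays were just apart, by a difference of -0.11 (-0.23 to 0.01). St6galnac1, a sialyltransferase of mucins, differed by -0.31, the surface carbonic anhydrase Car4 by -0.07, the guanylin precursor Guca2a by -0.13, and Sprr2a1, a small proline-rich protein, by -0.19.

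Barrier and transport genes were likewise close to 0. Of 22 genes of tight junctions and adhesion the median was -0.04, with 0 called. At an unadjusted p under 0.05, 1 was lower (1.12% of all genes were). Ocln, occludin, had log2 levels of 9.02, 9.21, 9.32 and 9.26 with butyrate, against 9.56, 9.24, 9.48 and 9.36 with saline, and the groups overlapped at a difference of -0.21 (-0.41 to -0.003). Cldn2, a pore-forming claudin, differed by 0.21 (-0.09 to 0.51). Among 32 genes of ion and water transport (median -0.06, 0 called) Kcne3, a potassium channel subunit that supports chloride secretion, had log2 levels of 10.77, 10.49, 10.35 and 10.31 with butyrate, against 10.29, 10.31, 10.15 and 10.11 with saline. Butyrate array 1 was highest, and the difference of 0.26 was 0.17 without it.

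Crypt stem and progenitor genes lay mostly above 0. Of 19 tested, 16 were above 0 against 57.2% of all genes, and the median was 0.12. Among them 0 were called and 2 were higher at an unadjusted p under 0.05 (2.89% of all genes were). Lgr5, the R-spondin receptor that marks crypt stem cells, had log2 levels of 7.71, 7.64, 7.86 and 7.54 with butyrate, against 7.78, 7.20, 7.28 and 7.14 with saline. Saline array 1 was within the butyrate arrays and the other 3 saline arrays were lower, with a difference of 0.34 (0.01 to 0.66). Cdca7, a Myc target of dividing cells, differed by 0.30, Ascl2, a Wnt-driven stem cell factor, by 0.57 (-0.01 to 1.15), and the ubiquitin ligase Znrf3 by 0.23. The mean log2 level of the list was 7.71, 7.67, 7.71 and 7.59 on the butyrate arrays and 7.60, 7.56, 7.50 and 7.50 on the saline arrays, so the lowest butyrate array was just under the highest saline array. Over the 19 alternative settings the median of the list stayed between 0.08 and 0.16.

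Genes of MHC class II presentation were all 8 above 0 (57.2% of all genes were), with a median of 0.33. Yet 0 were called and 0 had an unadjusted p under 0.05. The mean log2 level of the list was 7.34, 6.38, 6.32 and 6.63 on the butyrate arrays and 6.84, 6.04, 6.03 and 6.17 on the saline arrays. Array 1 of each group was high, and without butyrate HFD array 1 the median was 0.11. H2-Eb1, a class II beta chain, had log2 levels of 8.49, 7.35, 7.47 and 7.63 with butyrate, against 7.85, 7.01, 7.04 and 7.24 with saline, a difference of 0.45 (-0.11 to 1.01). H2-Ob, a peptide-loading modulator of B cells, differed by 0.90 (-0.08 to 1.87), and H2-DMa, a loading chaperone, by 0.31. Without butyrate HFD array 1 these differences were 0.20 for H2-Eb1, 0.60 for H2-Ob and 0.13 for H2-DMa, and without saline HFD arrays 1 and 2 that of H2-Ob was 1.39.

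Markers of cells that carry class II molecules were high on the same arrays. B and plasma cell markers had a median of 0.22 over 17 genes, 15 above 0 (57.2% of all genes were), 0 called and 4 higher at an unadjusted p under 0.05 (2.89% of all genes were). The median was 0.15 without butyrate HFD array 1, 0.50 without saline HFD arrays 1 and 2 and 0.37 without the 4 arrays with much small-intestinal RNA, and it ran from 0.06 to 0.50 over all alternative settings. Their mean log2 level was 6.30, 5.82, 5.32 and 5.98 on the butyrate arrays and 5.85, 5.28, 5.25 and 5.30 on the saline arrays. Cd79b, a chain of the B cell receptor, had log2 levels of 7.44, 6.56, 5.39 and 6.56 with butyrate, against 6.83, 4.52, 4.86 and 4.55 with saline. Saline array 1 lay among the butyrate arrays, and the difference was 1.30 (0.13 to 2.46), the largest of all tested genes. The B cell genes Fcer2a, Cd22 and Blk differed by 0.81, 0.73 and 0.42, and in each of them array 1 was the highest of its group. Fcer2a and Cd22 differed by 0.53 and 0.48 without butyrate HFD array 1. Of the defining markers, Jchain of plasma cells had mean log2 levels of 7.14 with butyrate and 7.15 with saline. Cd79a of B cells had means of 5.8 and 4.77. The part of these markers in the class II values was not tested.

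Macrophage and dendritic cell markers had a median of 0.19 over 16 genes, 14 above 0, 0 called and 5 higher at an unadjusted p under 0.05, with the same shares of all genes (57.2% and 2.89%). C1qb, a complement chain made by macrophages, had log2 levels of 6.30, 5.43, 5.73 and 5.52 with butyrate, against 5.19, 5.11, 5.40 and 5.33 with saline. The groups were just apart, with butyrate array 1 highest, and the difference of 0.49 was 0.30 without that array. C1qa differed by 0.34, or 0.18 without it, Fcer1g, an Fc receptor chain, by 0.44, and Csf1r, the macrophage growth factor receptor, by 0.35, or 0.15 without butyrate HFD array 1. Without that array the median of the list was 0.07. T and NK cell markers had a median of 0.05 over 17 genes, and -0.02 without saline HFD arrays 1 and 2. Cd3e, a T cell receptor chain, differed by 0.19 (-0.13 to 0.50), or 0.04 without those arrays.

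Interferon response genes were above 0 in 25 of 29 (57.2% of all genes were), with a median of 0.13, 0 called and 2 higher at an unadjusted p under 0.05 (2.89% of all genes were). Zbp1, a sensor of nucleic acids, had log2 levels of 7.45, 6.98, 7.11 and 7.02 with butyrate, against 6.84, 6.73, 6.83 and 7.11 with saline. The fourth saline array reached into the butyrate range, and the difference was 0.26 (0.01 to 0.51). Cxcl10, an interferon-induced chemokine, differed by 0.37, and the antiviral synthetases Oas2 and Oas1a by 0.56 and 0.26. Without saline HFD arrays 1 and 2 the median of the list was 0.06, and without butyrate HFD array 1 it was 0.07. Oas2, Cxcl10 and Zbp1 differed by 0.28, 0.22 and 0.16 without butyrate HFD array 1. Saa3, an acute-phase protein, differed by 0.41 (-0.21 to 1.04), or 0.12 without saline HFD arrays 1 and 2, and Psmb10, an immunoproteasome subunit, by -0.21.

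Fibroblast and matrix genes had a median of 0.31 over 19 genes, 17 above 0 (57.2% of all genes were), 0 called and 6 higher at an unadjusted p under 0.05 (2.89% of all genes were). The mean log2 level of the list was 6.43, 5.72, 6.20 and 5.69 on the butyrate arrays and 5.71, 5.72, 5.55 and 5.89 on the saline arrays. Butyrate arrays 1 and 3 were high, and arrays 2 and 4 lay among the saline arrays. Col1a2, a chain of collagen I, had log2 levels of 6.69, 5.67, 6.50 and 5.31 with butyrate, against 5.31, 5.48, 5.17 and 5.74 with saline, a difference of 0.62. Postn, the matrix protein periostin, differed by 0.57, Col6a3, a chain of collagen VI, by 0.52, and Vim, the mesenchymal filament vimentin, by 0.38. Without butyrate HFD array 1 the median of the list was 0.15, with 15 members above 0 (57.5% of all genes were). Col1a2, Col6a3 and Vim then differed by 0.41, 0.33 and 0.24.

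Endothelial markers were above 0 in 12 of 12 (57.2% of all genes were), with a median of 0.17, 0 called and 2 higher at an unadjusted p under 0.05 (2.89%). Without butyrate HFD array 1 the median was 0.10, with 12 above 0 (57.5% of all genes were). The list averaged log2 levels of 4.82, 4.47, 4.69 and 4.64 on the butyrate arrays and 4.49, 4.53, 4.45 and 4.43 on the saline arrays. Butyrate array 2 lay among the saline arrays. Emcn, endomucin, had log2 levels of 4.42, 3.99, 4.11 and 4.35 with butyrate, against 3.95, 4.15, 3.75 and 3.84 with saline, and the groups overlapped at a difference of 0.30. Eng, endoglin, differed by 0.28 (-0.03 to 0.58). These levels are near the filter, where the signal is dim.

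Smooth muscle genes ran the other way. Of 15 tested, 2 were above 0 against 57.2% of all genes, the median was -0.28, 0 were called and 5 were lower at an unadjusted p under 0.05 (1.12% of all genes were). The list averaged log2 levels of 5.92, 5.70, 5.81 and 5.49 on the butyrate arrays and 6.61, 6.53, 5.46 and 5.84 on the saline arrays. Des, the muscle filament desmin, had log2 levels of 5.07, 4.55, 5.04 and 4.33 with butyrate, against 6.73, 6.10, 4.52 and 5.0 with saline, a difference of -0.84. Myh11, smooth muscle myosin, differed by -0.72. Without saline HFD arrays 1 and 2 the median was 0.01 with 8 of 15 above 0 (55.2% of all genes were). Des and Myh11 then differed by -0.01 and 0.08. Adipocyte markers (14 genes, median -0.09, 0 called) varied widely, and Car3, a carbonic anhydrase of fat and muscle, had log2 levels of 6.57, 5.39, 4.99 and 8.02 with butyrate, against 7.18, 7.77, 7.15 and 6.67 with saline. Adipoq, adiponectin, differed by -0.47 (-1.27 to 0.33).

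**Figure D4:**
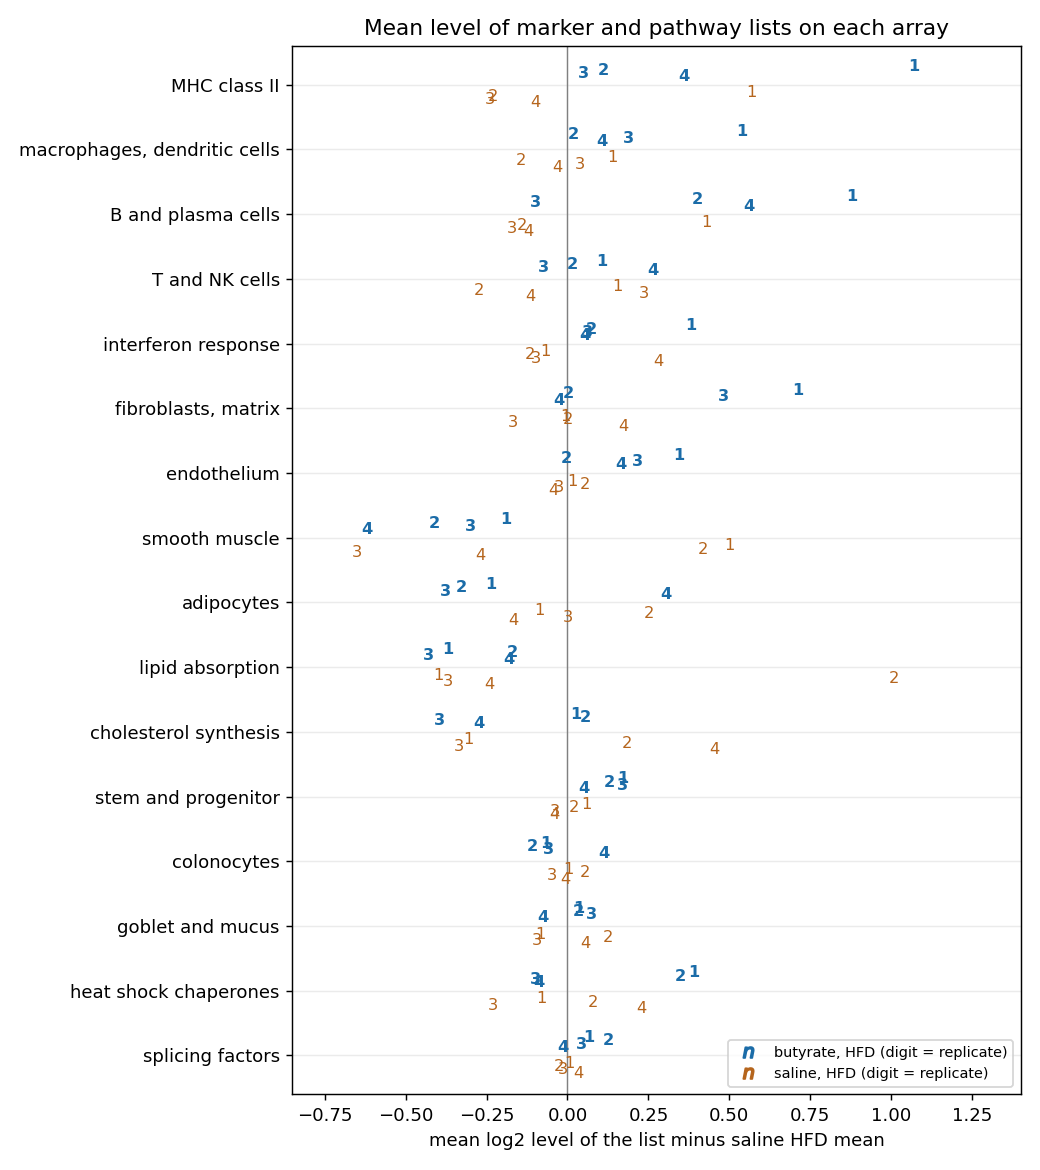
Mean log2 level of each list of genes (vertical axis) on each array, minus the mean of the saline HFD arrays (horizontal axis). Digits give the replicate, bold for butyrate above each line and plain for saline below it. Butyrate array 1 is high in MHC class II (7.34), macrophage (6.14) and fibroblast (6.43) genes, saline arrays 1 and 2 in smooth muscle genes (6.61 and 6.53), and saline array 2 in lipid absorption genes (7.97).

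Energy metabolism gave few differences. Of 80 respiratory chain genes 0 were called, and the median was -0.03. At an unadjusted p under 0.05, 1 was higher (2.89% of all genes were) and 3 were lower (1.12%). Ndufb8, a complex I subunit, had log2 levels of 8.63, 8.62, 8.61 and 8.58 with butyrate, against 8.80, 8.95, 8.74 and 8.77 with saline. The groups did not overlap and the difference was -0.20 (-0.36 to -0.05). Cox6a1 and Cox8a, subunits of cytochrome oxidase, differed by -0.20 and -0.13, and Ndufv1, a complex I subunit, by 0.14. Without saline HFD arrays 1 and 2 Cox6a1 differed by -0.09. Cytosolic ribosomal proteins (68 genes) had a median of -0.007 and mitochondrial ones (74 genes) a median of 0.01, with 0 called in either. Rpl13a, of the large cytosolic subunit, had log2 levels of 11.22 to 11.38 with butyrate and 11.09 to 11.20 with saline, a difference of 0.15. Another probe set of Rpl13a, with a mean log2 level of 10.3, differed by -0.06. The mitochondrial ribosomal genes Mrpl2 and Mrpl57 differed by 0.17 and -0.21.

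Splicing factors were above 0 in 42 of 52 (57.2% of all genes were), with a median of 0.07, 0 called and 6 higher at an unadjusted p under 0.05 (2.89% of all genes were). Tra2b, a splicing activator, had log2 levels of 10.18, 10.17, 10.13 and 10.07 with butyrate, against 9.97, 9.95, 9.94 and 9.99 with saline. All butyrate arrays were above all saline arrays, with a difference of 0.17 (0.03 to 0.32). Rbm25, Son and Hnrnpf, of the same machinery, differed by 0.14, 0.09 and 0.19. The median stayed between 0.03 and 0.09 over the 19 alternative settings. Small nucleolar RNAs, which guide modification of ribosomal RNA, had a median of -0.05 over 52 members, with 0 called. At an unadjusted p under 0.05, 2 of them were higher (2.89% of all genes were). Their median was -0.13 without butyrate HFD array 1. It was 0.105 without saline HFD arrays 1 and 2, where 36 of 52 were above 0 (55.2% of all genes were).

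Heat shock chaperones were above 0 in 11 of 12, against 57.2% of all genes (median 0.10, 0 called and 0 at an unadjusted p under 0.05). Hsph1, a large chaperone, had log2 levels of 8.88, 8.77, 7.73 and 7.60 with butyrate, against 7.48, 8.23, 7.09 and 8.40 with saline. Each group was split, and the interval of the difference was -0.52 to 1.41. Dnaja1 and Hspa4, a cochaperone and a chaperone, differed by 0.31 and 0.21. The median of the list was 0.04 and the difference of Dnaja1 0.16 without butyrate HFD array 1. Among stress and early response genes, Nr4a1, an orphan nuclear receptor induced early after stimulation, differed by 0.39, Ccn1, a matricellular protein, by 0.29, Hmox1, haem oxygenase 1, by 0.31 (0.19 without saline HFD arrays 1 and 2), Ero1a, an oxidase of the endoplasmic reticulum, by 0.23, and Pfkfb3, a regulator of glycolysis, by 0.23.

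Clock genes had a median of 0.05 over 16 members, with 0 called. At an unadjusted p under 0.05, 2 were higher (2.89% of all genes were). Ciart, a repressor of the clock, had log2 levels of 7.57, 6.91, 7.06 and 7.36 with butyrate, against 6.77, 6.41, 6.54 and 6.63 with saline. The groups did not overlap, and the difference was 0.64 (0.05 to 1.23). Usp2, a ubiquitin protease under clock control, differed by 0.48. Arntl, the activator BMAL1, had log2 levels of 7.06, 7.61, 7.39 and 6.77 with butyrate, against 7.68, 7.66, 7.45 and 7.84 with saline, and the difference was -0.45 (-1.04 to 0.13). Npas2, an activator that pairs with it, differed by -0.33. Tsc22d3, the glucocorticoid-induced leucine zipper, had log2 levels of 7.30, 7.35, 7.50 and 7.25 with butyrate, against 7.50, 7.77, 7.52 and 7.79 with saline, a difference of -0.29. Dusp1, another glucocorticoid target, differed by -0.24, or -0.39 without saline HFD arrays 1 and 2. The labels give the time of infusion relative to the dark phase for the study as a whole and not for each array.

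Butyrate was next set against the shorter acids at the same dose (100 mM), volume and time on HFD, 2 pairs in all. These comparisons share the butyrate arrays with each other and with the comparison against saline. Butyrate, propionate and acetate are linear acids that differ in chain length, butyrate being the longest of them. Against acetate 0 of 12795 genes were called (0%) by limma with Benjamini-Hochberg adjustment, and the smallest adjusted p was 0.996. There were 466 genes (3.64%) at an unadjusted p under 0.05. This does not show that the acids act alike. Myd88 differed by 0.11 between butyrate and acetate (-0.004 to 0.23), Tdg by 0.09 (-0.14 to 0.31) and Cdkn1a by -0.10 (-0.36 to 0.16).

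The genes with the smallest p against acetate included Exosc2, a subunit of the RNA exosome, with log2 levels of 6.84, 6.89, 6.69 and 6.79 with butyrate, against 6.38, 6.60, 6.44 and 6.41 with acetate. The groups did not overlap, at a difference of 0.35 (0.16 to 0.53). Elac2, a tRNA-processing nuclease, differed by 0.24, Gimap9, a GTPase of lymphocytes, by 0.46, and Pdpn by 0.38. P2rx4 differed by -0.22, Ube2b, a ubiquitin-conjugating enzyme, by -0.30, and Tsc1 by -0.26.

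Against propionate 8 genes were called (0.0625%) by limma with Benjamini-Hochberg adjustment, 2 higher with butyrate (0.0156%) and 6 lower (0.0469%), and 2217 (17.3%) had an unadjusted p under 0.05. Myd88 had log2 levels of 9.12, 9.11, 8.92 and 9.15 with butyrate, against 8.82, 8.71, 8.78 and 8.65 with propionate. The difference was 0.34 (0.22 to 0.45, limma adjusted p = 0.0255). All butyrate arrays were above all propionate arrays. Tdg had log2 levels of 7.96, 7.98, 7.75 and 7.93 with butyrate, against 7.43, 7.25, 7.54 and 7.20 with propionate. The difference was 0.55 (0.33 to 0.77, limma adjusted p = 0.0492). The groups did not overlap here either. For both genes the saline HFD mean lay between those of butyrate and propionate, at 8.85 for Myd88 and 7.5 for Tdg. The differences stayed between 0.31 and 0.39 for Myd88 and between 0.50 and 0.61 for Tdg when single arrays were left out, while the adjusted p moved across the threshold. Without propionate HFD array 2 the limma adjusted p was 0.184 for Myd88 and 0.262 for Tdg, and without butyrate HFD array 2 it was 0.172 for each. The calls were also lost for both genes without butyrate HFD array 1 (0.0691 and 0.0814), butyrate HFD array 4 (0.147 each) or propionate HFD array 3 (0.0586 and 0.0837), and for Tdg without butyrate HFD array 3 (0.0604). The number of genes called ran from 0 to 585 when single arrays of these groups were left out, with 585 without propionate HFD array 1 and 66 without propionate HFD array 4.

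The 6 genes lower with butyrate than with propionate were small noncoding RNAs of the nucleolus and related classes, with differences of -0.62 to -2.49 and limma adjusted p of 0.0475 to 0.0492. Their mean log2 levels were 4.83 to 8.48 with butyrate, 5.36 to 8.55 with saline and 5.86 to 9.11 with propionate. In each of the 6 the saline mean lay between the others, and in 5 of them it was nearer to butyrate, with propionate standing high. Small nucleolar RNAs as a list had a median of -0.63 against propionate, with 40 of 52 lower at an unadjusted p under 0.05 (4.57% of all genes were), and a median of 0.01 against acetate. Cytosolic ribosomal protein genes had a median of -0.12 against propionate, with 30 of 68 lower at an unadjusted p under 0.05. The median of all genes in this comparison was 0.04.

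Other genes named against propionate did not pass the threshold. Shq1, an assembly factor of small nucleolar ribonucleoproteins, had log2 levels of 6.70, 6.80, 6.84 and 6.86 with butyrate, against 6.51, 6.12, 6.17 and 6.29 with propionate, a difference of 0.53 (limma adjusted p = 0.0533). Pbrm1, a chromatin remodelling subunit, differed by 0.41 and Itpripl1 by 0.40. Rps27, a ribosomal protein, differed by -0.52, the lectin Clec2d by -0.35 and Snhg15, a host gene of small nucleolar RNA, by -0.60. Cdkn1a had log2 levels of 11.13, 11.02, 10.97 and 11.00 with butyrate, against 10.51, 10.45, 10.66 and 10.99 with propionate. Its propionate array 4 was level with the butyrate arrays and the other 3 were lower, at a difference of 0.38 (0.12 to 0.64, limma adjusted p = 0.137).

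**Figure D5:**
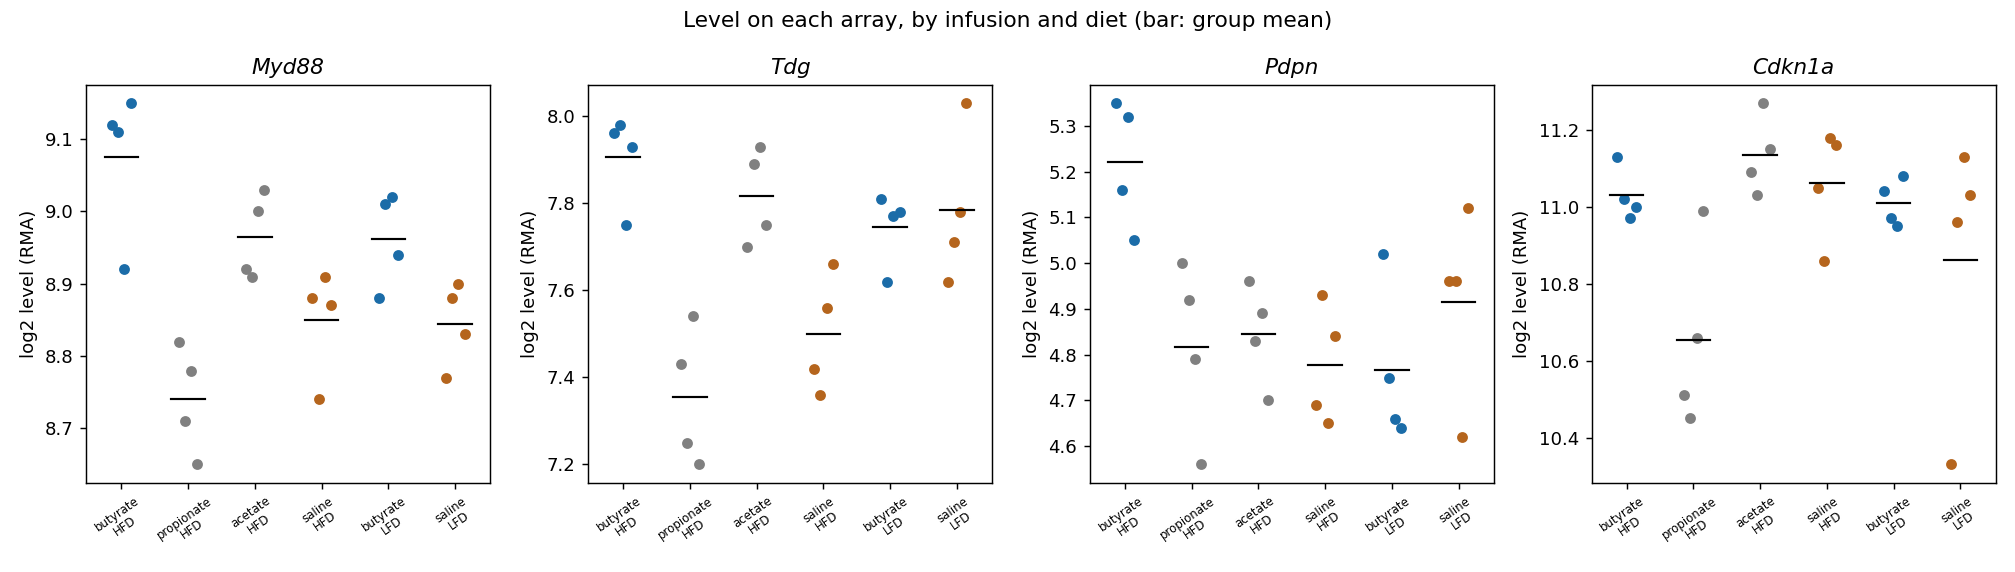
Log2 level of Myd88, Tdg, Pdpn and Cdkn1a (vertical axes, which do not start at 0) on each array of 6 groups of infusion and diet. Points are arrays (n = 4 per group) and bars group means. Myd88 and Tdg are highest with butyrate on HFD and lowest with propionate on HFD (means of 9.07 and 8.74 for Myd88, 7.90 and 7.35 for Tdg), and Cdkn1a is level in butyrate and saline on HFD.

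On LFD butyrate was set against saline in other arrays. There 0 of 12795 genes were called (0%) by limma with Benjamini-Hochberg adjustment, and the smallest adjusted p was 1.00. There were 358 genes (2.8%) at an unadjusted p under 0.05. Of the 15 genes named as higher on HFD, 10 were above 0 on LFD, where 51.4% of all genes were, with differences of -0.15 to 0.25. Of the 15 named as lower, 8 were below 0 on LFD, where 48.6% of all genes were, with differences of -0.55 to 0.08. Myd88 had log2 levels of 8.88, 9.01, 9.02 and 8.94 with butyrate on LFD, against 8.77, 8.88, 8.90 and 8.83 with saline on LFD, a difference of 0.12 (0.001 to 0.23). Map1lc3a differed by -0.20 on LFD (-0.37 to -0.03), and Pdpn by -0.15 (-0.38 to 0.08), or -0.27 without the 4 arrays with much small-intestinal RNA.

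The genes with the smallest p on LFD were others. Adgrg1, an adhesion receptor, had log2 levels of 9.24, 9.42, 9.33 and 9.40 with butyrate on LFD, against 8.82, 9.05, 9.27 and 8.93 with saline on LFD, a difference of 0.33. The zinc finger gene Zfp957 differed by 0.36 and Gstm1, a glutathione transferase, by 0.29. Slc2a2, the glucose transporter GLUT2, had log2 levels of 3.71, 3.74, 3.62 and 3.75 with butyrate on LFD, against 3.96, 5.38, 5.15 and 4.03 with saline on LFD. Saline LFD arrays 2 and 3, the high ones, were also high in small-intestinal transcripts. The difference was -0.92, and -0.29 without the 4 arrays with much small-intestinal RNA, which include these. Psmb8, an immunoproteasome subunit, differed by -0.53 and Impact, a regulator of translation, by -0.24.

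The difference between the diets in the response to butyrate was tested as an interaction, and 0 of 12795 genes were called (0%) by limma with Benjamini-Hochberg adjustment, and 291 (2.27%) had an unadjusted p under 0.05. Pdpn had the smallest adjusted p, 0.999, and its response was higher on HFD than on LFD by 0.59 (0.27 to 0.92). The responses of H2-M3 and Nanp were higher on HFD by 0.40 (0.17 to 0.63) and 0.47 (0.19 to 0.74), and that of Zbp1 by 0.64 (0.28 to 0.99). Those of Nit1, P2rx4 and the zinc finger gene Zfp108 were lower on HFD by 0.31, 0.27 and 0.45 on the log2 scale, as differences of -0.31, -0.27 and -0.45. Interferon response genes were above 0 in 29 of 29 for this interaction, with a median of 0.29, where 54.9% of all genes were above 0. None of the 29 was called. Their median was 0.13 on HFD and -0.14 on LFD. The median on HFD was 0.075 without butyrate HFD array 1 and 0.055 without saline HFD arrays 1 and 2. The interaction median was not computed without these arrays.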

How the data were processed

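Each sample was RNA of colonic scrapings measured on a single-colour array. The authors deposited log2 values made with RMA (background correction, quantile normalization and summary to probe sets), per the submitters' processing notes. The RMA version and the build behind the probe sets were not given in the sources used here. All 8 groups (31 arrays) were fitted in 1 model with limma 3.58.1 in R 4.3.3, with 1 mean per group and variances moderated along an intensity trend, and p-values were adjusted by Benjamini-Hochberg over all genes of a comparison. Of 35556 probe sets 21218 carried 1 symbol, 1881 several, and 12457 were not listed in the annotation. For the 1386 genes with more than 1 probe set the one with the highest mean was used. Genes needed an intensity of 20 (log2 4.32) on at least 3 arrays. Symbols were updated through gene identifiers to the GRCm38.p6 gene table. The code was checked on simulated data. No depth applies to arrays, and their number limits the precision.

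The members, the 55 gene lists and the tests were chosen with earlier results of these data known. Named genes are the 15 with the smallest p in each direction, up to 4 members of a list with the smallest p, the acid, deacetylase and PPAR panels, and up to 5 genes per direction in the other comparisons. Gene models without descriptive names, olfactory and vomeronasal receptors, immunoglobulin segments and small RNAs were left unnamed and only counted. The alternatives tried were to drop the filter, to ask for a mean log2 level of 6 (called the stricter filter), robust moderation, moderation without the trend, weights per array, the use of all probe sets, a repeated quantile normalization, a replicate block, and a fit to the compared groups alone. Single arrays were also left out, as were saline HFD arrays 1 and 2 (smooth muscle) and the 4 arrays with much small-intestinal RNA (saline HFD 2, saline LFD 2 and 3, and propionate LFD 2).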

Additional observations from a re-analysis of the deposited data

Results flagged for a closer look

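Single arrays stood far from the other 3 of their group in 29 of the 412 groups of 4 values examined (7.04%), by Dixon's test at the 95% level. Chance flags about 1 in 20 groups.

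Among immune genes the far arrays were mostly array 1 of either group. In the saline group on HFD, array 1 was high in H2-Ob (log2 level 6.51), Blk (4.14), Cd79b (6.83), Fcer2a (4.44) and in the mean of the B and plasma cell list (5.85). Butyrate HFD array 1 was high in the mean of the interferon response list (7.14) and saline HFD array 4 was high in the same list (7.04). Oas1a was low on butyrate HFD array 3 (7.66), as was Myd88 (8.92), the lowest butyrate array of that gene.

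Saline HFD array 2 was high in Apoa4 (9.60), Apoa1 (10.80) and Fabp1 (5.62), and in the means of the lists of lipid absorption (7.97) and bile acid and sterol handling (7.68), and low in the mean of the xenobiotic and antioxidant list (8.90). Butyrate HFD array 3 was high in Fabp1 (4.24). Butyrate HFD array 1 was low in Alpi (8.19), Pdk4 (6.69) and the mean of the proximal colon markers (8.66), and high in Fscn1 (5.22).

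The other far values were single ones. Angptl4 was high on saline HFD array 3 (6.01), Stard4 on butyrate HFD array 2 (8.69), and Mrpl57 was high on butyrate HFD array 2 (6.93) and low on saline HFD array 2 (6.86). Mrpl2 was low on saline HFD array 1 (6.89) and Zfp957 on butyrate HFD array 3 (4.11). Zfp957 had log2 levels of 4.15, 4.15, 4.11 and 4.15 on the butyrate HFD arrays, all under the filter of 4.32. Its flag rests on a small gap, since the other butyrate arrays were nearly equal. Saline HFD array 4 had a low mean of the cytosolic ribosomal proteins (10.59) and a high mean of the cell cycle list (7.10), and butyrate HFD array 3 a low mean of the glycolysis list (9.75).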

How the results depend on the processing

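The comparisons of butyrate with saline on either diet, with acetate, and between diets called 0 genes under every alternative run. Against saline on HFD the smallest limma adjusted p was 0.113, with array weights. Counts at an unadjusted p under 0.05 are given with the number tested, which was 513 of 12795 genes in the main fit. There were 858 of 18820 genes without filter, 286 of 8751 genes with the stricter filter and 1076 of 23623 when all probe sets were used. When single arrays were left out there were 316 to 636 of 12795 genes. The 8 calls against propionate became 53 of 8751 genes with the stricter filter, 2 without the trend, 2 with robust moderation and 937 with array weights. They became 183 of 23623 when all probe sets were used, and 21 after repeated quantile normalization. Without the 4 arrays with much small-intestinal RNA there were 2, and 0 to 585 when single arrays were left out. The cause was not tested.

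The replicate block gave 0 calls against saline and 64 against propionate. Deviations of butyrate and saline arrays of the same number on HFD correlated at 0.0464, 0.0766, 0.235 and -0.18. Arrays of different number correlated at -0.286 to 0.396. With so few arrays these values cannot tell whether replicate numbers pair the samples.

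Of 1768 gene values from alternatives other than leaving out single arrays, 10 changed sign. Ffar2 was -0.0021 after repeated quantile normalization. Without saline HFD arrays 1 and 2, Slc5a8 was 0.0084, Slc26a3 0.011, Ffar3 0.024, Acat1 -0.00041, Slc16a6 -0.014, Apoa1 0.097 and Myh11 0.083. Without the 4 arrays with much small-intestinal RNA, Acat1 was -0.011 and Apoa1 0.043. Leaving out single arrays gave -0.047 to 0.035 for Slc5a8, -0.132 to 0.050 for Slc16a1, -0.108 to 0.030 for Slc26a3, -0.108 to 0.147 for Ffar2, -0.098 to 0.037 for Acads, -0.018 to 0.094 for Bdh1, -0.020 to 0.054 for Acat1, -0.022 to 0.158 for Slc16a6, -0.096 to 0.010 for Cdkn1a, -0.050 to 0.520 for Clu and -1.711 to 0.043 for Apoa1. With only the groups compared, limma adjusted p against propionate was 0.133 for Myd88 and 0.0679 for Tdg. Tdg also missed the threshold without the trend (0.0505), with robust moderation (0.0564) and without the 4 arrays (0.0756).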
